A study of Mus musculus with 2 samples.

Results

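The genes described here encode the enzymes that carry glucose 6-phosphate to pyruvate and the enzymes that build and break down glycogen. The 32 genes were chosen by symbol, 20 of glycolysis and 12 of glycogen metabolism, and each symbol was looked up in the 55536 gene records of the tables, of which 22028 are protein-coding. Every symbol was found. Aldoa has a further record, at 0.05 TPM in replicate 1 and 0.09 TPM in replicate 2, which was not used.

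Each library holds the heart RNA of 1 adult female mouse aged 8 to 10 months. Both mice were B6CASTF1/J, a first-generation cross between C57BL/6J and CAST/EiJ. Replicate 1 is the animal numbered 1 and replicate 2 the animal numbered 3, and the labels name no treatment. Library preparation removed ribosomal RNA, kept the strand, and started from 300 ng of RNA to which ERCC spike-ins had been added. With 1 group of 2 libraries no groups can be compared, and no p-value is printed because the smallest that an exact two-sided sign-flip test could reach is 0.5. Both chromosome sets of the hybrid were read against a C57BL/6J reference, and whole heart mixes muscle cells with the vessel, connective tissue and blood cells around them.

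Glycolysis converts glucose to pyruvate in the cytosol and yields ATP without oxygen. Several of its steps are catalysed by isozymes from separate genes, and striated muscle, liver and brain each use their own set. Glycogen is the branched glucose store that muscle builds with glycogen synthase and opens with glycogen phosphorylase, an enzyme switched on by phosphorylase kinase. The adult heart draws most of its energy from fatty acids and turns to glucose and its own glycogen when demand rises or oxygen falls.

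A pair of sequence sets bears on the choice of isoform and isozyme. The pyruvate kinase gene Pkm holds a pair of mutually exclusive coding exons of 167 bases each, and the exon that is used sets whether the M1 or the M2 enzyme is made. Both are printed from the GENCODE M21 transcripts (GRCm38, plus strand of chromosome 9) with capitals at the 64 bases where they differ, an identity of 61.7%. The upstream exon, at chr9:59675029-59675195, is the M1 exon and the downstream exon, at chr9:59675568-59675734, the M2 exon.
Pkm M1 exon: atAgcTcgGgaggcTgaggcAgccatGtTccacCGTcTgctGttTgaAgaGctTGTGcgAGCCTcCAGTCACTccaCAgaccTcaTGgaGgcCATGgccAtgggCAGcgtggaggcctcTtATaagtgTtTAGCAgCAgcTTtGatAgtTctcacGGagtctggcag
Pkm M2 exon: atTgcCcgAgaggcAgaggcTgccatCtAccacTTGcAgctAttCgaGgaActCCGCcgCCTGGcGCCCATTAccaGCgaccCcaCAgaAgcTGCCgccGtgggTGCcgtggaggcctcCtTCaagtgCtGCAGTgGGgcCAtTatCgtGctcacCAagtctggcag

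The second set shows the 250 bases before the start of the muscle gene Pgam2 and of its widely expressed partner Pgam1, from the RefSeq promoter table (GRCm38.p6). They are shown because both genes encode 1 step at very different levels in this tissue, and because their base composition and motifs differ. The Pgam2 window, at chr11:5803797-5804046 on the minus strand, has a GC content of 53.2%, and capitals mark its match to the MEF2 consensus, 71 to 80 bases before the start. The Pgam1 window, at chr19:41911621-41911870 on the plus strand, has a GC content of 64.0%, and capitals mark an ACGTG, 110 to 114 bases before the start.
Pgam2 promoter: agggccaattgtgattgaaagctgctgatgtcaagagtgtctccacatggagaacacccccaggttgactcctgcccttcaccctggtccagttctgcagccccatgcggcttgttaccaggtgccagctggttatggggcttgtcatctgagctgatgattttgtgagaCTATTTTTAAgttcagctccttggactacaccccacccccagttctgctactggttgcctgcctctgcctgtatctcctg
Pgam1 promoter: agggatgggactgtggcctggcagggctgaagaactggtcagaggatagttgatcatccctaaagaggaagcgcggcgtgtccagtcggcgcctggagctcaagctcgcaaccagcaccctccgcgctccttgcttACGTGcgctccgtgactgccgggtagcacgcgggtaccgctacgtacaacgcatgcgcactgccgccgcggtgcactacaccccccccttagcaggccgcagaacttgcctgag

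Summed over genes, the expected counts came to 42223411 in replicate 1 and 40553237 in replicate 2, and the 32 genes took 0.856% and 0.791% of them. Levels are TPM (transcripts per 1000000 transcripts, a per-length unit that allows genes to be compared) from the alignment-derived gene table unless another table is named. The 6 cardiomyocyte markers had a median level of 3093 ± 176 TPM and all passed 1 TPM, which is what the tissue label calls for. Liver markers summed to 0.21 and 0.38 TPM over 5 genes, with Cyp3a11 and Serpina1a at 0, and neutrophil markers to 1.52 and 1.42 TPM over 6 genes, with Ngp and Camp at 0. None of the 9 neuron and glia markers reached 1 TPM in both libraries, and they summed to 2.81 and 1.98 TPM. All 5 endothelial, 5 fibroblast and 6 macrophage markers were expressed, summing to 149 and 114, 166 and 142, and 39.0 and 33.9 TPM. Red blood cell markers, 5 of 7 at 1 TPM or more in both libraries, summed to 3479 TPM in replicate 1 and 2255 in replicate 2. The labels record separate biological replicate numbers, and the spread between 2 libraries is all that an SD here can measure.

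Of the 32 genes, 27 stood at 1 TPM or more in both libraries, against 48.7% of all protein-coding genes, and 11 stood at 100 TPM or more, against 2.26%. The 11 were Gapdh, Aldoa, Eno3, Pygm, Pkm, Pfkm, Tpi1, Pgam2, Gpi1, Pygb and Pgk1. The median over all 32 genes was 44.7 TPM in replicate 1 and 36.4 in replicate 2, a mean of 40.5 ± 5.90 TPM (SD, n = 2), beside 7.95 ± 0.75 TPM over the 10721 expressed protein-coding genes. Together the genes made up 1.96% ± 0.021 of the TPM of nuclear protein-coding genes, 1.69% ± 0.023 from glycolysis and 0.273% ± 0.0012 from glycogen metabolism. The glycolytic genes summed to 6.12 times the glycogen genes in replicate 1 and 6.27 times in replicate 2. The 5 genes that missed 1 TPM in a library were Pfkfb4, Aldoc, Pklr, Gys2 and Pygl.

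**Figure D1:**
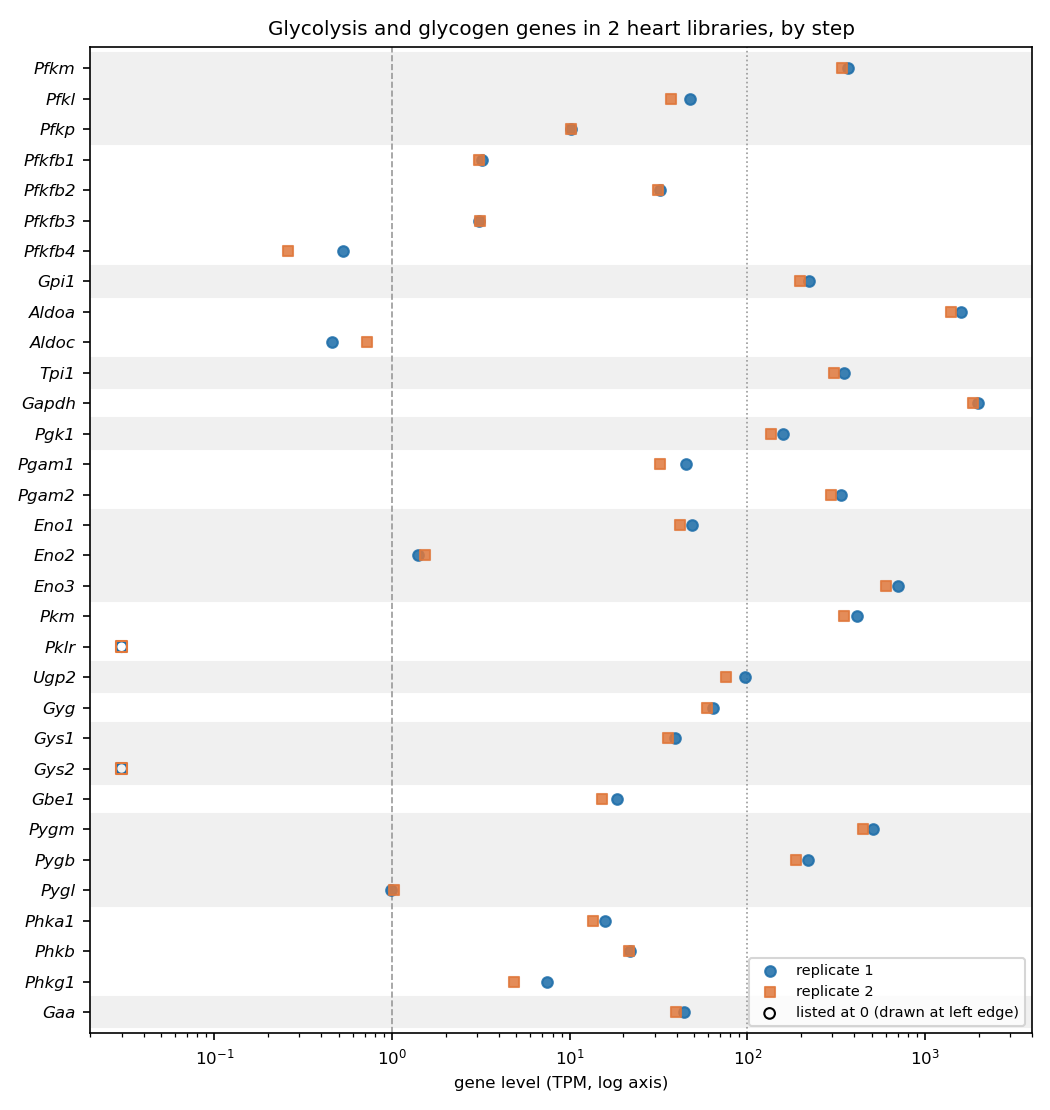
Level of each of the 32 genes in TPM on a log axis, 1 circle for replicate 1 and 1 square for replicate 2, with genes in the order of their steps and shading by step. Open symbols at the left edge stand for a value of 0, and dashed and dotted lines mark 1 and 100 TPM. Gapdh (1992 and 1873 TPM) and Aldoa (1588 and 1400 TPM) stand highest, and Pklr and Gys2 are listed at 0.

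The preparatory stage of glycolysis begins with glucose-6-phosphate isomerase, Gpi1, which turns glucose 6-phosphate into fructose 6-phosphate. It stood at 221 TPM in replicate 1 and 198 in replicate 2. Phosphofructokinase, the committed and most regulated step, was carried by the muscle isozyme. Pfkm (chr15:98092589-98132451, plus strand) stood at 367 and 342 TPM, the liver-type Pfkl at 47.3 and 37.0 TPM, and the platelet-type Pfkp at 10.2 and 10.1 TPM. Pfkm therefore held 86.5% of the step in replicate 1 and 87.9% in replicate 2, and was 8.48-fold above Pfkl and 34.9-fold above Pfkp in the mean. The order of the 3 genes was the same in both libraries and their ranges did not overlap.

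PFKFB enzymes make and remove fructose 2,6-bisphosphate, the activator of phosphofructokinase. Pfkfb2, the form known as the heart isozyme, stood at 32.1 and 31.2 TPM and held 82.7% ± 0.23 of the 4 genes. Pfkfb1, the liver and muscle form, stood at 3.19 and 3.10 TPM, and Pfkfb3, the inducible form, at 3.08 and 3.11 TPM. These were about 10-fold below Pfkfb2, by factors of 10.1 and 10.2 in the mean, and could not be ordered between themselves. Pfkfb4, known from testis, was at 0.53 and 0.26 TPM, on 55 and 26 expected counts. Pfkm stood 11.2-fold above Pfkfb2 in the mean.

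Aldolase, which splits fructose 1,6-bisphosphate, came almost wholly from Aldoa (chr7:126795234-126800751, minus strand), the muscle and red cell form. Aldoa stood at 1588 and 1400 TPM and the brain-type Aldoc at 0.46 and 0.72 TPM, so Aldoa held 99.97% and 99.95% of the pair. Aldoc rested on 22 and 16 expected counts. Triosephosphate isomerase, Tpi1, which interconverts the 2 triose phosphates that aldolase releases, stood at 349 and 308 TPM, 4.55-fold below Aldoa.

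In the second stage, Gapdh, the dehydrogenase that forms NADH and 1,3-bisphosphoglycerate, had the highest TPM of the 32 genes, 1992 and 1873, and rank 25 among protein-coding genes, with Aldoa at rank 30. This order depends on the unit. Aldoa had more expected counts than Gapdh, 73782 and 65991 against 41923 and 39996. The effective length behind the TPM of Gapdh was 625 and 630 bases, beside 1381 and 1391 bases for Aldoa. It was short because the alignment-derived table gave most of the TPM of Gapdh, 69.0%, to a transcript of 483 bases. That transcript held 42.1% of the expected counts of Gapdh. Pgk1, which makes the first ATP of this stage, stood at 158 and 135 TPM. The ratio of Gapdh to Pgk1 was 13.2 by TPM and 4.81 by expected counts.

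Phosphoglycerate mutase was led by the muscle isozyme. Pgam2 (chr11:5801640-5803733, minus strand) stood at 338 and 297 TPM and the widely expressed Pgam1 at 45.2 and 32.2 TPM. Pgam2 held 88.2% and 90.2% of the step and was 8.30-fold above Pgam1 in the mean. By expected counts, which are not per length, the lead was 3.69-fold, since the Pgam2 transcript of 840 bases is shorter than the main Pgam1 transcript of 1775 bases. Bpgm, which makes 2,3-bisphosphoglycerate in red cells, stood at 13.0 and 9.15 TPM, and the red cell markers were also lower in replicate 2. Their part in the level of Bpgm was not tested.

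Enolase was led by Eno3 (chr11:70657202-70662513, plus strand), the beta form of muscle, at 705 and 604 TPM. The alpha form Eno1 stood at 48.9 and 41.8 TPM and the neuronal gamma form Eno2 at 1.40 and 1.54 TPM. Eno3 held 93.3% of the step in each library, 14.4-fold above Eno1 and 444-fold above Eno2 in the mean. Eno1b, a gene nearly identical to Eno1, was listed at 19.6 and 14.8 TPM, and reads that the pair shares could have been split between them. The sum of Eno1 and its related loci was still far below Eno3, since those loci held 52.0% of the Eno1 level.

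Pyruvate kinase, the last step, came from Pkm (chr9:59656368-59679375, plus strand), the muscle and general gene, at 416 and 352 TPM. Pklr, the liver and red cell gene, had no expected count in either library, while the FASTQ-derived table listed it at 0.19 TPM in replicate 1 and at 0 in replicate 2. A count of 0 allows up to 3 counts, or 0.0711 counts per 1000000 in replicate 1 and 0.0740 in replicate 2, and this limit covers counting error only. Against it, within the alignment-derived table, Pkm was at least 5811-fold higher in replicate 1 and at least 4948-fold higher in replicate 2. These bounds hold for that table and that limit only. In the FASTQ-derived table Pkm was 2165-fold above Pklr in replicate 1. The authors' upper credibility bound for Pklr, 0.79 TPM in each library, is above that limit, and the lead of Pkm over it is smaller.

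The transcripts of Pkm divided almost evenly between the printed exons. Pkm-202, the annotated transcript with the M1 exon, held 48.9% and 49.2% of the gene in the alignment-derived table and 47.2% and 47.6% in the FASTQ-derived table. Pkm-201, the annotated transcript with the M2 exon, held 50.3% and 49.7%, and 50.05% and 49.99%. Neither exon led in either library beyond 3 percentage points, and both tables gave the same picture. The share does not rest on the exons alone, because Pkm-201 also has 205 bases at its 5′ end and 186 bases at its 3′ end that Pkm-202 lacks, and how far these set the split was not tested. All 137 words of 31 bases in each exon also occur in Gm49759, an unspliced record over the same region and strand, which stood at 0.92 and 0.80 TPM. Only the M2 exon also shares words with processed pseudogenes, most with Gm6560 (56 words), which stood at 1.05 and 0.78 TPM. The part of these records in the split was not tested.

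On the glycogen side, synthesis begins with Ugp2, which makes UDP-glucose and stood at 96.6 and 75.8 TPM. Glycogenin, Gyg, the self-glucosylating primer of each granule, stood at 63.8 and 59.0 TPM. The chain is extended by glycogen synthase, and only its muscle form was detected. Gys1 (chr7:45434844-45456619, plus strand) stood at 39.0 and 35.7 TPM, and Gys2, the liver form, had no count in either table. Gys1 was at least 605-fold higher than Gys2 in replicate 1 and at least 559-fold in replicate 2, against the limit of 3 counts. The authors' upper credibility bound for Gys2, 0.42 TPM in each library, is above that limit, and the lead of Gys1 over it is smaller. The branching enzyme Gbe1 was the lowest of the synthetic genes, at 18.5 and 15.1 TPM, and Ugp2 exceeded it 5.11-fold.

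Of the breakdown genes, Pygm and Pygb stood above all of the synthetic genes. The muscle phosphorylase Pygm (chr19:6384399-6398459, plus strand) stood at 507 and 449 TPM, the brain form Pygb at 219 and 188 TPM and the liver form Pygl at 0.98 and 1.03 TPM. Pygm held 69.7% and 70.4% of the step, the smallest leading share of the 8 steps with several isozymes. Its lead over Pygb was 2.31-fold and 2.39-fold by TPM and 1.49-fold and 1.56-fold by expected counts, while Pygl lay 475-fold below in the mean. The 3 phosphorylase genes summed to 18.7 and 17.9 times the 2 synthase genes, and the ratio was 16.8 in the FASTQ-derived table and 14.2 by expected counts.

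Phosphorylase kinase has catalytic, regulatory and calmodulin subunits. The beta subunit gene Phkb stood at 21.8 and 21.4 TPM, the muscle alpha subunit gene Phka1 at 15.7 and 13.5 TPM and the muscle gamma (catalytic) subunit gene Phkg1 at 7.48 and 4.86 TPM. By expected counts the order of Phkb and Phka1 was reversed, at 2081 and 1856 against 2623 and 2194. Of the liver-type subunits, Phka2 stood lower than Phka1 in both libraries, at 2.88 and 2.89 TPM. Phkg2, at 4.46 and 4.95 TPM, stood lower than Phkg1 in replicate 1 and was level with it in replicate 2. The lysosomal glucosidase Gaa, which digests glycogen outside this cytosolic route, stood at 44.2 and 39.6 TPM.

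All 8 steps with several isozymes were led at least 2-fold by 1 gene in both libraries, by Pfkm, Pfkfb2, Aldoa, Pgam2, Eno3, Pkm, Gys1 and Pygm, and the same genes led in the FASTQ-derived table. With a 3-fold lead, or by expected counts, 7 steps were led, and Pygm was the exception. The leading genes shared 68.9% to 77.8% of coding bases with their partners, and 31-base words were shared only between Pygm and Pygb (38 words), Pfkfb2 and Pfkfb4 (6 words) and Pkm and Pklr (1 word). Skeletal muscle uses many of the same isozymes. Of 7 skeletal muscle markers, 4 reached 1 TPM in both libraries, with the muscle creatine kinase Ckm, which adult heart also expresses, at 1445 and 1303 TPM and the skeletal actin Acta1 at 129 and 98.6 TPM. Tnnt3 stood at 3.60 and 3.73 TPM and Myh4 at 2.76 and 3.41 TPM, while Actn3, at 0.99 and 1.38 TPM, Myh1, at 0.21 and 0.23 TPM, and Myh2, at 0.13 and 0.16 TPM, did not reach it in both. The lower partners Pfkl, Pgam1 and Eno1 are also genes of vessel, connective tissue and immune cells, whose markers were present, and their part in these levels was not tested. In whole tissue, fewer cells of a type and less RNA per cell cannot be told apart.

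**Figure D2:**
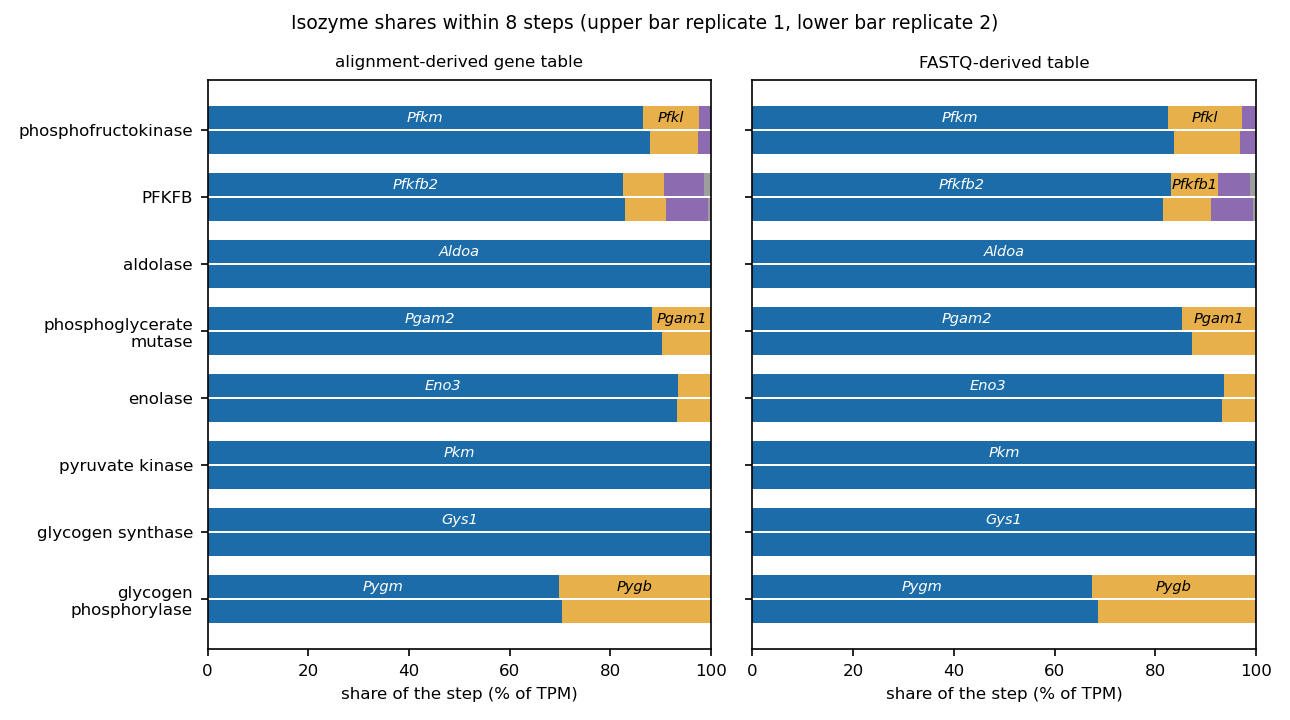
Share of each step's TPM held by each isozyme, in percent, with replicate 1 as the upper and replicate 2 as the lower bar of a pair, for the alignment-derived gene table on the left and the FASTQ-derived table on the right. Segments follow the mean level from left to right and those over 9% are named. The leading share runs from 70.0% for Pygm and 82.7% for Pfkfb2 to nearly the whole bar for Aldoa, Pkm and Gys1 in the left panel.

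Summed by step, Gapdh stood at 1933 ± 84.0 TPM and aldolase at 1494 ± 133 TPM. Enolase at 701 ± 75.9 and glycogen phosphorylase at 683 ± 62.5 TPM followed, and their means did not differ beyond their SDs. Within each library enolase was above phosphorylase, at 755 against 727 TPM in replicate 1 and 648 against 639 TPM in replicate 2. In the FASTQ-derived table enolase, at 873 ± 122 TPM, was also above phosphorylase, at 626 ± 46.4 TPM, in both libraries. Phosphofructokinase at 407 ± 25.1, pyruvate kinase at 384 ± 45.6, phosphoglycerate mutase at 356 ± 38.1 and triosephosphate isomerase at 329 ± 28.6 TPM came next. Each lay within an SD of its neighbour, although the order was the same in both libraries. Phosphofructokinase was above triosephosphate isomerase in both libraries without overlap. The FASTQ-derived table gave the opposite order for these 2 steps, with phosphofructokinase at 349 and 316 TPM and triosephosphate isomerase at 408 and 360 TPM. Gpi1 and Pgk1 closed the order of the route itself at 210 ± 16.2 and 147 ± 16.2 TPM, and the 4 PFKFB genes beside it summed to 38.9 and 37.7 TPM. The glycogen steps other than phosphorylase all stood below Pgk1, from 86.2 ± 14.7 TPM for Ugp2 to 16.8 ± 2.38 TPM for Gbe1, with glycogen synthase at 37.3 ± 2.29 TPM.

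Glucose entry and lactate formation flank this route. Of 10 genes of glucose uptake and phosphorylation, 7 stood at 1 TPM or more in both libraries, led by the insulin-responsive transporter Slc2a4 at 184 and 168 TPM and the muscle hexokinase Hk2 at 145 TPM in both. Of 7 genes of the lactate and glycerol phosphate ends, 6 were expressed. Ldhb, the heart subunit of lactate dehydrogenase, stood at 1286 and 1148 TPM, and Ldha, the muscle subunit, at 323 and 253 TPM. Among other isozymes of the steps above, Pgk2 and Eno4 were listed at 0 in both libraries, and Gapdhs, the sperm form, at 0.05 and 0 TPM.

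Levels in the 2 animals were compared gene by gene. Log2 ratios of replicate 2 to replicate 1, from TPM + 0.1, were centred on -0.18, the median of all 11876 genes compared. Before centring, 79.3% of these genes had a lower TPM in replicate 2. Of the 28 members compared, 0 lay 1.5-fold or more apart, against 5.78% of all compared genes, and 25 lay within 1.2-fold, against 73.6%. Among 28 genes, 0 is near the first share. The median level was 40.5 TPM over all 32 members, beside 7.95 TPM over expressed protein-coding genes, and the counts were not matched for level. Neither count is read as a trait of these genes. The centred median of the members compared was 0.01 and their range ran from -0.43 for Phkg1 to 0.31 for Eno2. The third gene outside 1.2-fold was Pgam1, at -0.30. Phkg1 fell from 459 to 338 expected counts and Eno2 from 82 to 56, so that Eno2 was higher in replicate 2 by TPM and lower by counts.

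Without centring, 25 of 28 members were lower in replicate 2, against 79.3% of all genes, and the authors' credibility intervals did not overlap for 21, against 28.0%. The members are abundant and their intervals narrow, so that share is not comparable between genes of different level. With 1 library per animal these differences have no replicate check. The members left out were Pfkfb4, Aldoc, Pklr and Gys2, and when all genes with a count were admitted, Pfkfb4 and Aldoc passed 1.5-fold, in opposite directions.

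**Figure D3:**
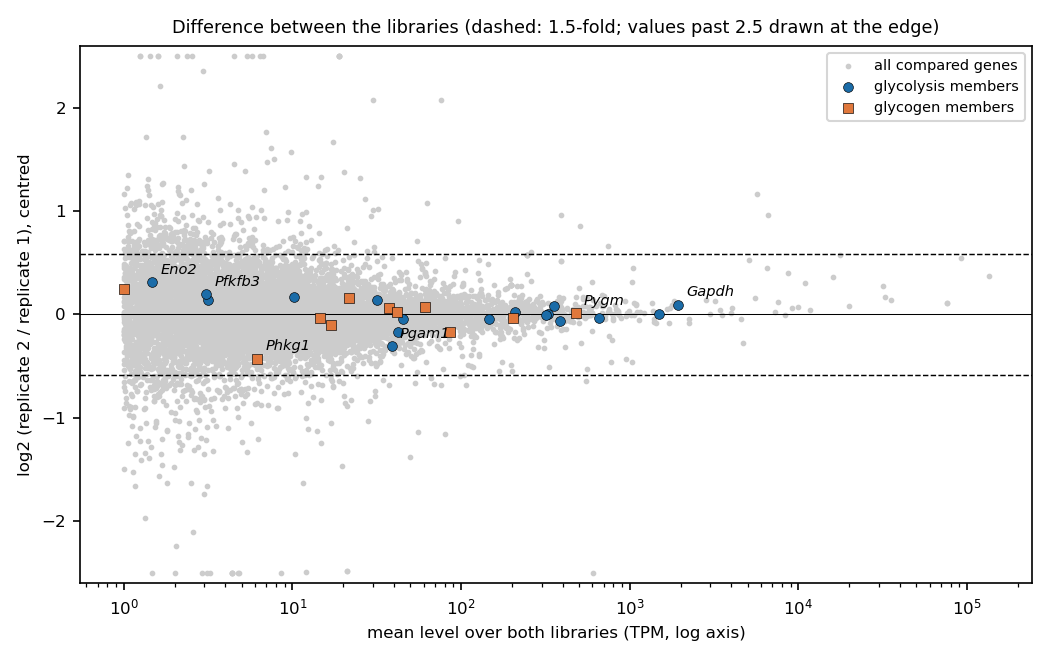
Centred log2 ratio of replicate 2 to replicate 1 against the mean level in TPM on a log axis, for all 11876 compared genes in grey and the 28 compared members in colour. Dashed lines mark 1.5-fold. No member lies beyond them, Phkg1 (-0.43) and Eno2 (0.31) are the outermost, and members above 100 TPM lie close to 0.

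The transcript tables were compared member by member. Of 28 members with a mean of 1 TPM or more, 0 had gene totals 2-fold apart between the alignment-derived and the FASTQ-derived tables in both libraries. The shares were 3.54% of all such genes and 0.784% of the protein-coding ones. Within 1.2-fold in both libraries lay 19 members. No share of all genes is given for that fold, so the 19 are not read as a trait of these genes. The main isoform was the same transcript in both tables for 22 of 27 members with several transcripts, against 81.2% of all genes and 81.3% of protein-coding genes. The exceptions were Pfkfb3, Gapdh, Eno3, Ugp2 and Gyg.

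Gapdh differed most. The alignment-derived table gave 69.0% ± 0.32 of it to Gapdh-208, a processed transcript of 483 bases with no coding sequence, and 29.2% ± 1.61 to the full-length Gapdh-201. The FASTQ-derived table gave 0.06% to Gapdh-208 and 0 to Gapdh-201. It gave 46.3% ± 1.03 to Gapdh-207, a partial coding transcript of 471 bases, and 42.4% ± 4.69 to Gapdh-203. Gapdh-203 has the same 999 coding bases as Gapdh-201 and another first exon. By TPM, both tables thus placed much of a housekeeping gene on a fragmentary transcript, each on another one. By counts these fragments held less, 42.1% for Gapdh-208 in the first table and 16.0% for Gapdh-207 in the second. Gapdh-203 held 74.3% of the counts in the second. Gapdh also has many retrocopies: 129 other genes share at least 100 of its 31-base words. Of these, Gm7336 stood at 8.40 and 13.9 TPM in the alignment-derived table and at 728 and 777 TPM in the FASTQ-derived table, so that locus and Gapdh cannot be cleanly separated here. Gm10359 and Gm12070 stood at 20.04 and 8.00 and at 15.4 and 5.26 TPM, Gm5069 at 1.56 and 2.37, and Peli2, a protein-coding gene sharing 174 words, at 8.43 and 6.77 TPM.

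Gyg and Ugp2 changed their leading transcript with the table. Gyg-203 held 94.4% ± 3.37 of Gyg in the alignment-derived and 31.5% ± 3.97 in the FASTQ-derived table, and Gyg-201, which carries 224 further bases, 221 of them at the 5′ end, and 132 further coding bases, held 4.24% ± 3.76 and 66.6% ± 4.41. Ugp2-202 held 51.2% ± 0.10 and 27.2% ± 2.17 and Ugp2-201 48.4% ± 0.13 and 71.8% ± 3.56, and the coding sequences of the pair differ by 33 bases. For Eno3, transcripts 201 and 202, which encode the same 1302 coding bases, held 45.2% ± 0.40 and 40.8% ± 4.52 in the alignment-derived and 28.1% ± 1.30 and 36.7% ± 7.96 in the FASTQ-derived table. Pfkfb3, at 3.10 TPM in the mean, had Pfkfb3-202 at 23.9% and Pfkfb3-206 at 21.8% in the first table and at 0 and 36.9% in the second.

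Starts differed for Aldoa and Pfkm. Aldoa-201 held 92.2% ± 1.19 in the alignment-derived and 64.3% ± 3.96 in the FASTQ-derived table, and Aldoa-203, whose first exon begins 1193 bases upstream and which encodes the same protein, held 3.83% ± 0.62 and 25.8% ± 5.42. Pfkm-201 held 43.2% ± 4.70 and 92.4% ± 1.13, and Pfkm-205, with the same coding sequence and a start 15822 bases upstream, 36.0% ± 1.71 and 5.76% ± 0.61. Shorter coding transcripts also moved with the table. Pfkm-203, with 353 coding bases, held 20.8% by the alignment-derived and 0 by the FASTQ-derived table, and Aldoa-212, with 570 coding bases, 0.04% and 8.43%.

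Among the other members, retained-intron and partial transcripts took part of the gene. Pygm-201 held 78.6% ± 0.40 and the retained-intron Pygm-203 17.4% ± 1.00 in the alignment-derived table, with 88.5% ± 1.89 and 11.2% ± 1.70 in the FASTQ-derived table. Phka1-201 held 68.2% ± 4.09 and the retained-intron Phka1-207 30.6% ± 3.82, and Phkb-201 40.7% ± 4.49 beside 39.6% ± 2.70 for the partial Phkb-206. Phkg1-201 held 78.6% ± 9.60 and the partial Phkg1-202 12.6% ± 7.90. Gpi1-201 held 54.8% ± 0.33 and Gpi1-207, annotated for nonsense-mediated decay, 22.6% ± 4.01.

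In the alignment-derived table, the remaining leading pairs were Gaa-203 (56.8%) and Gaa-201 (41.4%), Gbe1-203 (43.6%) and Gbe1-201 (36.0%), Pfkp-201 (55.9%) and Pfkp-207 (28.4%), and Pfkl-201 (75.3%) and the decay-annotated Pfkl-205 (14.6%). Pfkfb2-203 held 47.5% and Pfkfb2-208 19.1%, Pfkfb1-201 60.4% and Pfkfb1-202 22.5%, and Eno1-202 50.6% and the partial Eno1-205 38.9%. Pgam1-201 held 99.3% and Tpi1-205 98.8%, and only the FASTQ-derived table gave a further transcript over 10%, Pgam1-203 at 21.2% and Tpi1-203 at 23.5%. Gbe1 was the least steady of the expressed genes, with Gbe1-201 at 9.95% in replicate 1 and 62.1% in replicate 2. Aldoc, Eno2, Pfkfb4 and Pygl, all under 2 TPM, rested on too few counts to order their isoforms: Aldoc-202 was at 68.9% and 0, Aldoc-206 at 24.4% and 36.1%, Eno2-201 at 45.4% and 20.1%, Eno2-210 at 0 and 37.0%, Pfkfb4-201 at 0 and 80.8%, Pfkfb4-203 at 73.1% and 3.85%, Pygl-201 at 94.8% and 100%, and Pygl-204 at 3.09% and 0.

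**Figure D4:**
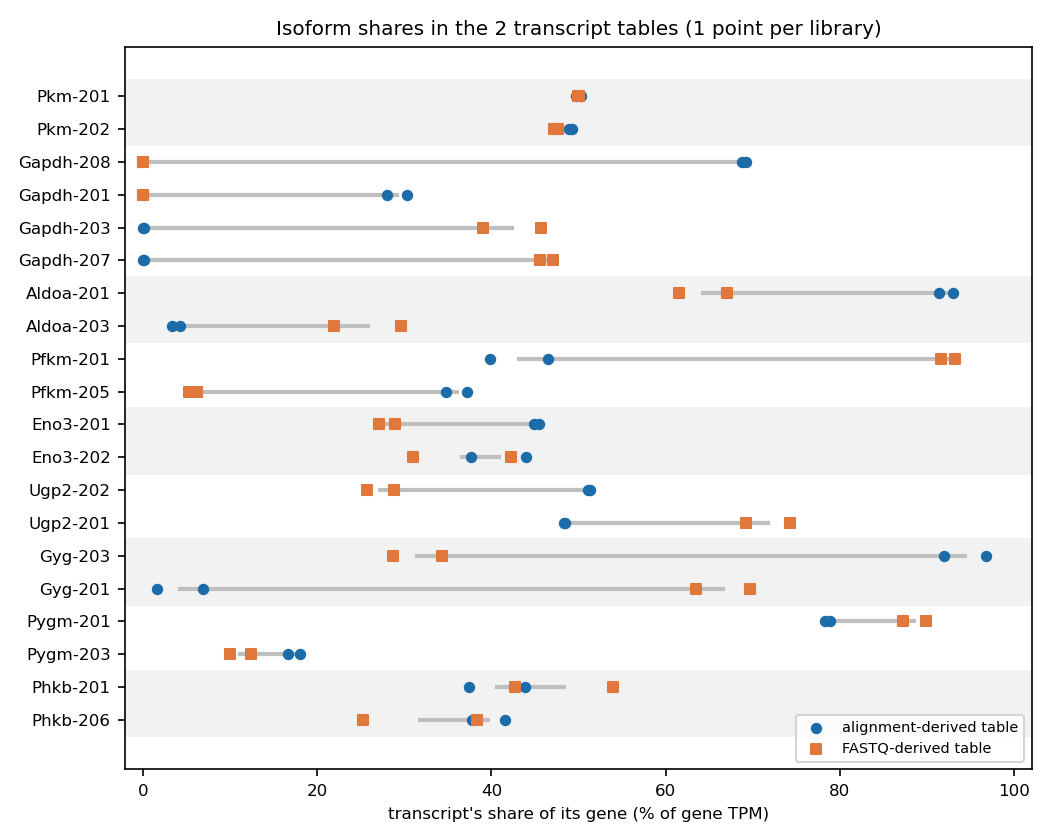
Share of the gene's TPM held by the transcripts of 9 genes that were among the 2 highest of their gene in either table, in percent, with circles for the alignment-derived and squares for the FASTQ-derived table, 1 symbol per library, and a grey line between the table means. The 2 Pkm transcripts lie near 50% in both tables, while Gapdh-208 moves from 69.0% to 0.06% and Gyg-203 from 94.4% to 31.5%.

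Other members also share sequence with retrocopies. At least 100 words are shared with related genes by 10 members, and the share of a member's words found elsewhere was highest for Pgk1 (54.7%), Pgam1 (37.1%), Pkm (34.7%), Eno1 (28.5%) and Gapdh (27.2%). Eno3, Pgam2, Ugp2 and Gyg shared none. Among the related loci at 1 TPM or more in both libraries were Gm4735 (5.64 and 7.07 TPM, related to Eno1), Gm1840 (14.2 and 11.3 TPM, to Gpi1), Gm5537 (9.15 and 8.30 TPM, to Pgk1) and Pgam1-ps2 (2.27 and 2.62 TPM, to Pgam1). The FASTQ-derived table listed Gm5537 and Pgam1-ps2 at 0, so levels of these loci are uncertain.

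The promoter windows of the members, 250 bases before to 50 after each start in the RefSeq table, were searched for 6 motifs on both strands. The table held 48 windows for 31 of the 32 members, Gys2 apart, among 32851 windows in all. The MEF2 consensus was in 2 of 48 windows, those of Pgam2 and 1 start of Pfkfb1, and in 3.19% of all windows. The MCAT motif CATTCC was in 8 of 48, those of Aldoa, Aldoc, Eno1, Eno2, Eno3, Gaa and Pgam2, and in 14.7% of all. The GC box GGGCGG was in 25 of 48 and 35.7% of all, ACGTG in 19 of 48 and 19.6%, TATAAA in 3 of 48 and 13.6%, and the CArG box in 0 of 48 and 1.63%. Of the leading isozymes, Aldoa, Pfkfb2, Pkm and Gys1 held the GC box in at least 1 window and Pfkm, Pgam2, Eno3 and Pygm in none. Of their partners, Pfkl, Pfkp, Pfkfb1, Pfkfb3, Pfkfb4, Aldoc, Pgam1, Eno1 and Pygl held it and Eno2, Pklr and Pygb did not. The median GC content was 58.0% over the members' windows and 52.7% over all. A match describes letters in the window and says nothing of binding.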

How the data were processed

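Each of the 2 heart libraries came with 3 tables. The deposited description files name mm10 (GRCm38) as the assembly and GENCODE M21 as the annotation. They list 1 gene and 1 transcript table made from alignments to the transcriptome, and 1 more transcript table made from reads in FASTQ form. Neither they nor the labels name the software, and the columns look like RSEM output in the former and kallisto output in the latter. Expected counts and TPM fill the alignment-derived tables per the file headers, and estimated counts and TPM the FASTQ-derived one. The authors also deposited posterior mean TPM and credibility bounds of TPM, treated here as a score of precision because their level is not given. Per the labels the 2 libraries are separate animals, although both carry 1 donor identifier, which was read as naming the strain.

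Symbols of the 32 members were matched to gene identifiers. FASTQ-derived transcripts were summed to genes. Means ± SD are over 2 libraries. Genes were expressed at 1 TPM or more in both libraries. Log2 ratios between libraries used TPM + 0.1, from which the median log2 ratio was subtracted, taken over genes averaging 1 TPM and holding 20 expected counts over both libraries, and understate differences of low genes. A fold over a gene with 0 counts was computed against 3 counts in each library. Isoform shares are percent of gene TPM. Transcripts were compared by words of 31 bases, and genes sharing at least 100 were called related. Over 15305 genes the libraries differed by a chi-square of 39.0 per degree of freedom, so they are not the same library. PCR copies cannot be told from separate molecules without molecular identifiers, so the stated limits cover counting error only. The comparison of libraries was also run on simulated data, and no value given here comes from that run.

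Members, gene lists and thresholds were chosen with earlier results of these data known. The rule for names covers all 32 members, the other isozymes of their steps, the 2 highest genes of each other list, the 2 highest transcripts of members with at least 2 transcripts over 10%, and related genes at 1 TPM in both libraries. Marker genes are named as values beside a result. Some genes outside the 32 that the rule covers are not reported here. Gyg1 matched no record and was not used here. Alternatives were other thresholds, pseudocounts, units, scalings (edgeR 4.0.16 TMM and DESeq2 1.42.0 size factors on counts rounded to whole numbers), the other table and each library alone. Python 3.11.15, pandas 2.3.3, matplotlib 3.10.9 and R 4.3.3 were used.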

Additional observations from a re-analysis of the deposited data

How the results depend on the processing

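No paired analysis was possible because there is 1 group. The number of members 1.5-fold apart between the libraries was 0. It became 1 without centring (Phkg1, beside 7.27% of all compared genes). By expected counts, with edgeR's TMM factors or with DESeq2's size factors it was also 1 (Pfkfb3 in each, beside 4.55%, 4.56% and 4.53%). At 1.2-fold it was 3 (Pgam1, Eno2 and Phkg1, beside 26.4%). With no filter, an alternative chosen after seeing the data, it was 2 (Pfkfb4 and Aldoc, with no share of all genes given). It remained 0 at 2-fold, with pseudocounts of 0.01 and 1, in the FASTQ-derived table, with no count minimum and with 100 counts. The number of members with the same main isoform fell from 22 to 14 when that isoform had to hold 50% in both tables. It was 18 without replicate 1 and 22 without replicate 2. No share of all genes is given at these settings, so these counts are not read as a trait of the members. The members' share of nuclear protein-coding TPM was 1.96%, 1.43% by expected counts and 1.93% by posterior mean TPM, and 1.95% and 1.98% in the single libraries. The other results named above kept within 1.5 times their value or 1 SD: expressed members 23 to 28, led steps 7 or 8, 0 members 2-fold apart between the transcript tables, and the median 36.4 to 46.4 TPM. Of 128 values of member levels under other settings, 98 moved by less than 1 SD and 30 were classed as moving further. Those 30 include values of Pklr and Gys2 that stayed at 0, because their SD is 0. Of 24 isozyme ratios 14 moved by less and 10 by more, and 0 values in either set were reversed. Single-library settings could not pass 1 SD, since leaving out 1 of 2 libraries always shifts a mean by less. In the FASTQ-derived table and by expected counts, every isozyme ratio examined except Aldoa over Aldoc moved by more than 1 SD. The cause of these shifts was not tested. Depth limits Pfkfb4, Aldoc, Eno2 and Pygl, which rest on under 100 counts a library, and Pklr and Gys2, which had none.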

Other observations

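Genes that run the route backwards or bypass a step stood low beside the glycolytic genes. Of 10 genes of gluconeogenesis and bypass, 7 reached 1 TPM in both libraries, with a median of 5.63 ± 1.46 TPM. The 2 highest were Tigar, a fructose bisphosphatase that lowers fructose 2,6-bisphosphate, at 23.1 and 18.7 TPM, and G6pc3, the widely expressed glucose-6-phosphatase, at 21.9 and 18.5 TPM. Fbp2, the muscle fructose bisphosphatase, stood at 10.3 and 6.61 TPM, and Fbp1, the liver form, was listed at 0 in both libraries, so the muscle form led this step as well. The Fbp pair was named after its values were seen.

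Of 20 genes of glycogen targeting, phosphomutation and turnover control, 17 reached 1 TPM in both libraries, and 0 of the 18 compared were 1.5-fold apart between them, beside 5.78% of all compared genes. The catalytic subunits of protein phosphatase 1, Ppp1cb and Ppp1ca, were the 2 highest, at 147 and 131 and at 114 and 99.4 TPM. Pgm1, which links glucose 1-phosphate to glycolysis, stood at 85.5 and 79.1 TPM. Among the glycogen-targeting subunits, Ppp1r3c stood at 39.5 and 28.5 TPM, Ppp1r3a, the striated muscle form, at 36.3 and 28.7 TPM, and Ppp1r3b, known from liver, at 10.9 and 8.69 TPM. Pgm1 and the targeting subunits were named after their values were seen.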
